A study of Rattus norvegicus with 9 samples.

Results

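Respiratory complex I (NADH:ubiquinone oxidoreductase) is the entry point of electrons from NADH into the respiratory chain of the inner mitochondrial membrane. Its matrix arm oxidises NADH and passes the electrons along iron-sulfur clusters to ubiquinone, and its membrane arm pumps protons. The core subunits of the membrane arm are encoded by mitochondrial DNA, while the catalytic core of the matrix arm and the many accessory subunits, which build and stabilise the complex, are encoded in the nucleus. Neurons meet most of their ATP demand by oxidative phosphorylation (OXPHOS).

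The nuclear complex I genes were taken as the protein-coding genes whose symbol begins with Nduf followed by a, b, c, s or v and a digit, together with Ndufab1. There were 38 such genes among 34092 in the table, of which 22250 were protein coding. The genes were measured in wild-type rat primary hippocampal neurons, prepared from fetal hippocampi and treated at 7 days in vitro for 24 h. Control neurons received vehicle, NPCT neurons received 1 nM of human aminoprocalcitonin, the peptide cut from the amino end of procalcitonin, and PCT neurons received 1 nM of human procalcitonin, the parent peptide. Each group held 3 libraries, and the labels number them as replicates while the methods speak of pooled samples of biological triplicates, so the p-values measure only the spread between these libraries. The comparisons ask whether either peptide shifts the transcripts of the complex, and whether the cleaved peptide and its parent differ.

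Of the 38 genes, 37 had a mean FPKM (fragments scaled to gene length and library depth) of at least 0.5 and were tested. The remaining gene, Ndufa10l1, a second Ndufa10-like locus on chr6, was listed at 0 in all 9 libraries. Ndufa4, now regarded as a subunit associated with cytochrome c oxidase (complex IV), and its relative Ndufa4l2 match the naming rule only. Ndufb1 was not analysed here. The row named Ndufs6 is a processed pseudogene and so not a member. A pair of other loci with that subunit's name are described further on.

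The libraries held between 13573056 and 17211642 fragments. PCT replicate 3 stood apart from the other PCT libraries among the complex I genes. Its level exceeded both other PCT libraries for 25 of 37 members (67.6%, against 38.7% of all genes tested), and the median member was 0.13 higher there than the mean of the other two on the log2 scale, against -0.003 over all genes. Fits without PCT replicate 3 are singled out further on because of such values, so their p-values and counts are descriptive. Neuronal markers were present, and their summed FPKM (11 genes) was 2104 to 2196 in Control, 2057 to 2261 in PCT and 2023 to 2084 in NPCT. This sum rests mostly on Stmn2 and Tubb3. Gene by gene, the neuronal markers had a median log2 difference of -0.21 with NPCT, where 8 of 11 were below 0 and 6 had all NPCT libraries below all controls (20.3% of all genes), and of -0.06 with PCT. The cultures also held glial transcripts. Astrocyte markers (7 genes, none below 0.5 FPKM throughout) summed to 2106 to 2290 in Control, 1915 to 1989 in PCT and 2024 to 2346 in NPCT. Their median log2 difference was -0.60 with PCT, where 6 of 7 had all PCT libraries below all controls (11.9% of all genes) and 4 were DEGs (adjusted p at most 0.05 and fold above 1.5, 2.28% of all genes), and -0.04 with NPCT. Oligodendrocyte lineage markers (8 genes) summed to 409 to 426, 353 to 367 and 438 to 452. Although their sum was lower with PCT, 6 of 8 were above 0, with a median of 0.14, and 5 had all PCT libraries above all controls (13.1% of all genes). With NPCT their median was 0.16. Microglial markers (7 genes) summed to 16.4 to 23.9, 7.22 to 10.8 and 23.2 to 90.0, with a median of -1.38 with PCT and 0.49 with NPCT, whereas 4 of 4 red blood cell markers and 3 of 4 endothelial markers stayed below 0.5 FPKM in all libraries. The part of these cell-type differences in the results on complex I was not tested. In bulk RNA, fewer cells of a type and less RNA per cell cannot be told apart.

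The promoters of complex I genes are known targets of nuclear respiratory factor 1 and of ETS-family factors. The 250 bases before the start of 3 members are shown because in the NPCT comparison Ndufa13 and Ndufa11 lay above the controls and Ndufs4 below them. The sequences are from RefSeq on the build GRCr8, which is not the build of the expression table. Capitals mark exact matches, on either strand, to the ETS motif CCGGAAG in Ndufa13 and to the NRF1 half-site GCATGCGC, in a run of overlapping matches, in Ndufa11. Ndufs4 held no match to any motif searched, nor did Ndufb8, Ndufb6, Ndufb3 and Ndufv1, which lay above the controls with NPCT. Ndufs1, whose log2 difference with NPCT was -0.07, held an ETS match. Whether the motifs go with the direction of the differences was not tested.
Ndufa13, chr16:19560276-19560525, plus strand: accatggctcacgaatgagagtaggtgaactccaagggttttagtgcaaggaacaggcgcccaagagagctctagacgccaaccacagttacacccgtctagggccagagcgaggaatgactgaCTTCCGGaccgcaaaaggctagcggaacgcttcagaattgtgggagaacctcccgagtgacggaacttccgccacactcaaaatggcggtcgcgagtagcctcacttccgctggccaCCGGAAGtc
Ndufa11, chr9:1637364-1637613, plus strand: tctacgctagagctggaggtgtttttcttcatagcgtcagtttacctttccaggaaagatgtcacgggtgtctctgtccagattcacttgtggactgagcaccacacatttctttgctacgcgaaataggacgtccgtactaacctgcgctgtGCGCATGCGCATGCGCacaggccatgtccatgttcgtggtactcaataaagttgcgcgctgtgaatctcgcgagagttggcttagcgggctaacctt
Ndufs4, chr2:47794915-47795164, minus strand: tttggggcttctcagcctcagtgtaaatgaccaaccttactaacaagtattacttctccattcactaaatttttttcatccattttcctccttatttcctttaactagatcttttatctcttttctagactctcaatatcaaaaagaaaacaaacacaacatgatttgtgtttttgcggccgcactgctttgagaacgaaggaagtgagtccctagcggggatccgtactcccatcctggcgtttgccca

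Promoter entries were found for 34 of the 37 members tested, and Ndufa8 and Ndufb9 were among those unmatched. The ETS motif was present in 7 of the 34 (20.6%, against 9.01% of 21842 protein-coding promoters of the same length), in Ndufa1, Ndufa13, Ndufa2, Ndufa6, Ndufb7, Ndufs1 and Ndufs8. In Ndufa13 it occurred at positions -126 to -120 and -9 to -3 from the start. The NRF1 half-site, whose matches on the 2 strands can overlap, was present in Ndufa11 (positions -97 to -82) and Ndufa6, or 5.88% against 2.83%. The cyclic AMP response element TGACGTCA was present in Ndufa10 and Ndufb2, at -29 to -22 in both (5.88% against 1.89%). The Sp1 motif GGGCGG was present in 11 members (32.4% against 38.9%), and the YY1 motif AAGATGGC in 0 (against 1.64%). These matches are descriptions of letters in a window, and no binding was measured.

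Most complex I genes lay far above the filter of 0.5 FPKM in these cultures. Their levels were not ranked against those of all genes. Leaving aside Ndufa1, Ndufa12 and Ndufa4l2, the other 34 members tested had mean levels in Control between 26.8 FPKM (Ndufab1, the mitochondrial acyl carrier protein) and 233 FPKM (Ndufa4). They were counted with 89 to 3638 fragments per library. In Control the coefficient of variation between libraries was 1.54% to 13.8%, with a median of 4.58%. In NPCT it was 1.90% to 12.8% (median 7.56%), and in PCT 1.41% to 96.9% (median 8.27%), with 7 members above 25% in PCT and 0 in the other groups. The lowest level belonged to Ndufa4l2, which was 1.37 ± 0.112 FPKM in Control, 1.54 ± 0.333 in PCT and 1.70 ± 0.521 in NPCT (SD, n = 3). Its groups overlapped.

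Summed over the members, the FPKM of complex I genes was 2576 ± 13.6 in Control, 3015 ± 361 in PCT and 3157 ± 189 in NPCT (SD, n = 3 libraries). The PCT libraries summed to 2768, 2846 and 3429 and the NPCT libraries to 3007 to 3369, so that all treated libraries lay above the controls (2564 to 2591). The share of all fragments that fell on the members was 0.211% to 0.213% in Control, 0.228%, 0.242% and 0.274% in PCT, and 0.244% to 0.269% in NPCT. The heat map of the members by library shows which genes made up this difference. Most of the upper rows lay above the controls in the NPCT libraries and in PCT replicate 3.

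**Figure D1:**
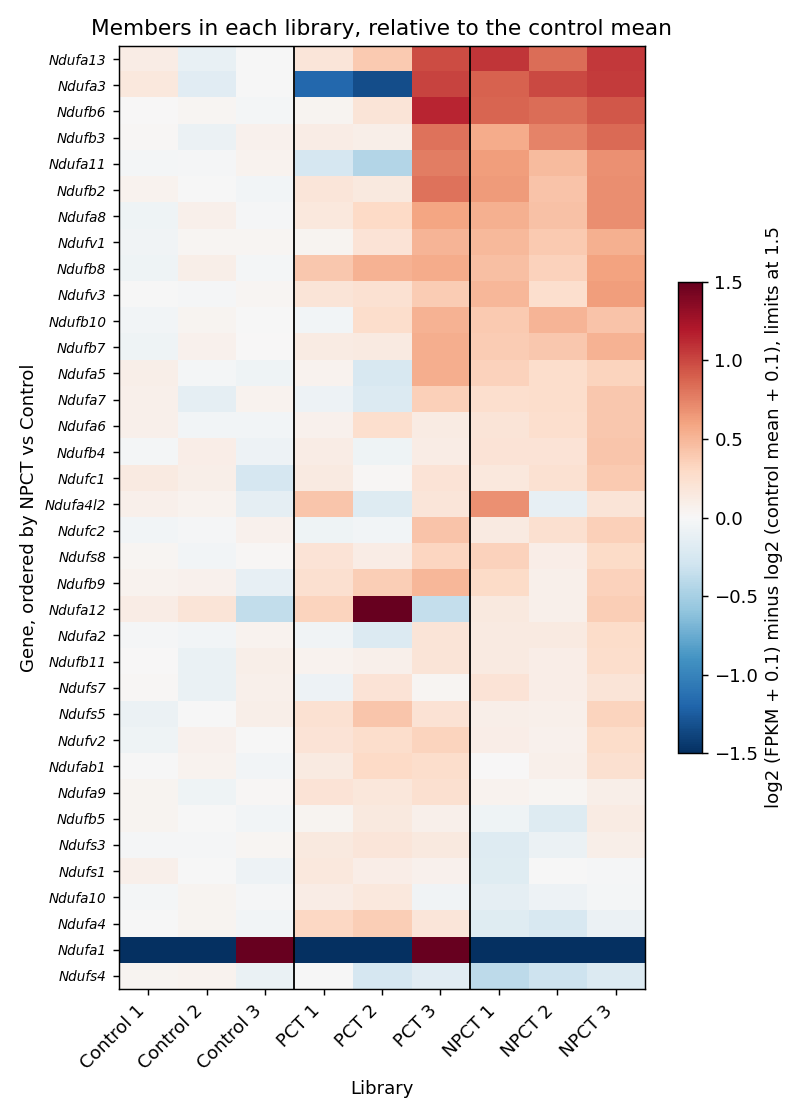
Level of 36 of the 37 members tested in each library, as log2 (FPKM + 0.1) minus the log2 of the control mean, with colours limited at 1.5 and rows ordered by the fold change of NPCT against Control. The upper rows are red in the 3 NPCT libraries and in PCT replicate 3, and Ndufa3 is blue in PCT replicates 1 and 2. Ndufa1 is high in Control replicate 3 and PCT replicate 3 and low in all other libraries.

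NPCT was compared with Control for each gene with limma on log2 FPKM, with Benjamini-Hochberg adjustment over all 15958 genes tested and 3 libraries per group. In this comparison 30 of 37 members had a fold change above 0. The median member was 0.24 higher on the log2 scale, against 0.01 over all genes tested. With the trend of levels on gene length removed, the median member was 0.14 higher. Ndufb8, an accessory subunit of the far membrane arm, rose 1.39-fold and was the 1 member with an adjusted p of at most 0.05 (background 0.470% of genes). No member was a differentially expressed gene (DEG), defined by an adjusted p of at most 0.05 with a fold change above 1.5, where 0.219% of all genes were. At an unadjusted p under 0.05, 19 members were higher (background 14.6%) and 2 lower (background 14.7%). With the length trend removed, 11 members were higher at this threshold (background 15.7%). Limma-voom on the recovered fragments called 5 members (background 2.44%). All 3 NPCT libraries lay above all 3 controls for 24 members (background 20.0%), or 64.9% of those tested, and below them for 2 (background 20.3%). With 3 libraries against 3, an exact permutation test of a single gene cannot go below p = 0.1. Without PCT replicate 3, which is in neither group here but enters the shared estimate of spread, 6 members were DEGs (background 3.53%), namely Ndufa13, Ndufa3, Ndufb6, Ndufb3, Ndufa11 and Ndufb2, all higher with NPCT.

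Accessory subunits of the membrane arm stood highest. Ndufa13 (chr16:21275311-21282246), also known as GRIM-19, an inner-membrane subunit at the junction of the arms, measured 79.8, 68.5 and 73.8 FPKM in Control and 155.9, 132.0 and 154.9 in NPCT. The NPCT libraries were all well above the controls, a log2 difference of 1.00 ± 0.18 (SE, adjusted p = 0.0509). Ndufa8 (chr3:15362824-15379381), a cysteine-rich subunit facing the intermembrane space, was 52.4 ± 2.46 FPKM in Control and 77.3 ± 7.22 in NPCT (SD, n = 3), a log2 difference of 0.56 ± 0.11 (adjusted p = 0.0509). Its groups did not overlap. Both genes narrowly missed the threshold on adjusted p, and Ndufa8, at 1.47-fold, also missed the threshold of 1.5 on fold change. Leaving out 1 library at a time, the limma adjusted p ranged from 0.00238 to 0.170 for Ndufa13. For Ndufa8 it ranged from 0.00493 to 0.170.

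Ndufb8 (chr1:264298669-264303762) measured 114, 127 and 117 FPKM in Control, 158, 171 and 176 in PCT and 164, 152 and 182 in NPCT. All treated libraries lay above the controls while the peptide groups overlapped. The log2 difference was 0.47 ± 0.079 with NPCT (SE, adjusted p = 0.0498) and 0.49 ± 0.079 with PCT (adjusted p = 0.0124). Between the peptides it was -0.02, with a 95% interval from -0.20 to 0.16. Leaving out 1 library at a time, the adjusted p for NPCT stayed at most 0.05 in 2 of 9 cases, without PCT replicate 1 or 3, and ranged from 0.00677 to 0.170. For PCT it did so in 7 of 9 cases, with 0.0650 without Control replicate 1 and 0.0590 without Control replicate 3.

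Ndufb6, Ndufb3, Ndufa11 and Ndufb2 are described next because their values stood out when seen, and not by the rule for named genes. Ndufb6, an accessory subunit of the far membrane arm, was 45.8, 46.5 and 44.8 FPKM in Control and 84.1, 81.5 and 87.1 in NPCT, a log2 difference of 0.88 ± 0.24. Ndufb3 of the same arm was 37.9, 35.1 and 39.0 in Control and 54.8, 62.8 and 67.2 in NPCT, a difference of 0.72 ± 0.18. Ndufa11, a subunit of the near membrane arm, was 83.1, 83.9 and 88.2 in Control and 131.5, 118.5 and 137.1 in NPCT, a difference of 0.60 ± 0.26, and Ndufb2 of the far arm differed by 0.59 ± 0.16. In all of these the NPCT libraries lay above the controls, with adjusted p-values of 0.0612, 0.0571, 0.161 and 0.0625.

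**Figure D2:**
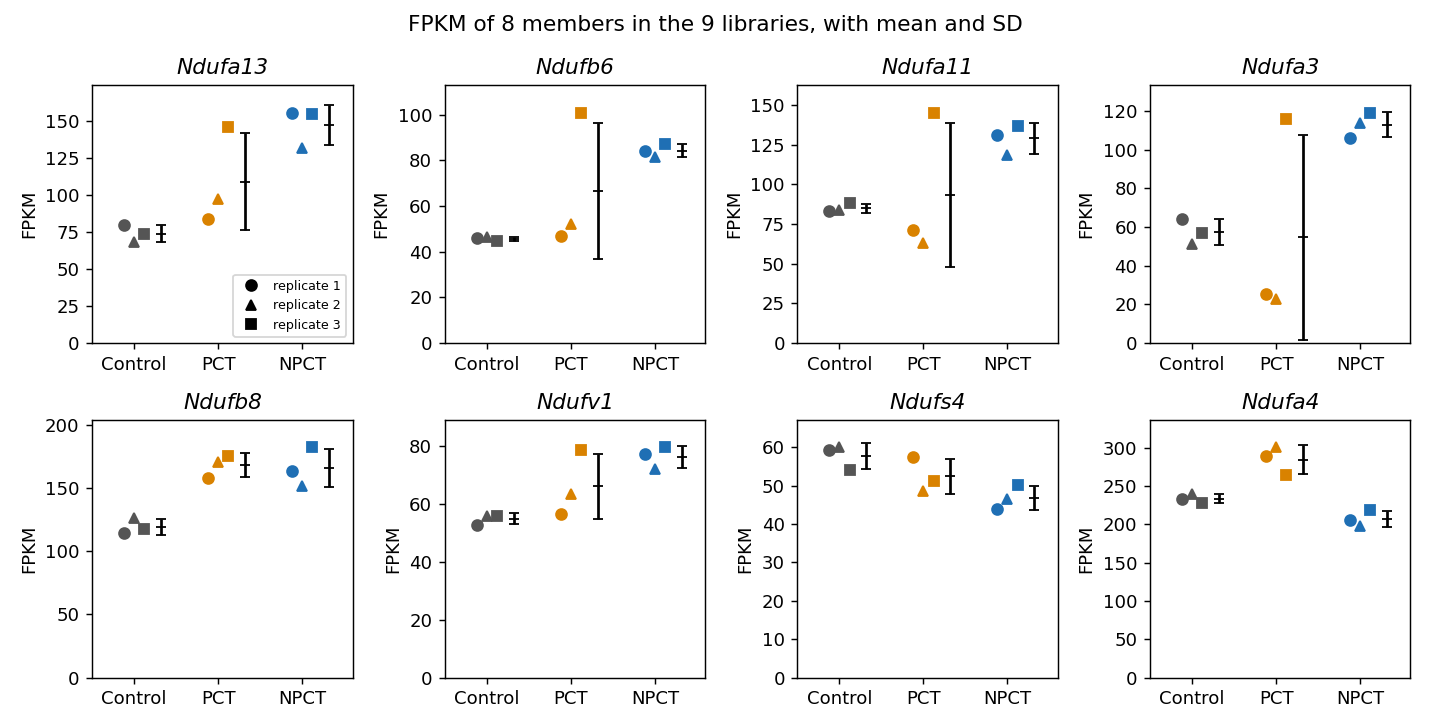
FPKM (vertical axis, from 0) of 8 members in each library of the 3 groups, with a marker per replicate number and the group mean and SD beside the points. In Ndufa13, Ndufb6, Ndufa11 and Ndufa3, PCT replicate 3 lies near the NPCT libraries and away from PCT replicates 1 and 2, whereas in Ndufb8 the PCT libraries lie together, and in Ndufa4 all PCT libraries are above and all NPCT libraries below the controls.

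Arranged by position in the complex, the far membrane arm had the highest median. For its 10 accessory subunits the median log2 difference between NPCT and Control was 0.44, 9 of 10 had NPCT libraries all above the controls (20.0% over all genes), and 9 were higher at an unadjusted p under 0.05 (14.6% over all genes). The exception was Ndufb5, at -0.04. The 9 accessory subunits of the near membrane arm had a median of 0.27 (7 higher, 6 of them without overlap). The 8 accessory subunits of the matrix arm had a median of 0.26 (7 higher, 5 without overlap). The 7 core subunits had a median of 0.16 (5 higher, 4 without overlap). The position groups were not tested against each other. Their genes also differed in length, which is taken up further on. Lengths were 454 to 1062 bases in the far membrane arm and 213 to 1984 in the near membrane arm. They were 474 to 1562 for the matrix-arm accessory subunits and 748 to 2474 for the core. The part of gene length in these medians was not tested.

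The core subunits carry the flavin and iron-sulfur clusters of the electron path. Ndufv1 (chr1:219254279-219259448), which binds NADH and the flavin, measured 52.8, 56.1 and 56.1 FPKM in Control and 77.3, 72.2 and 79.7 in NPCT. Its groups were separate, and the log2 difference was 0.48 ± 0.11 (SE, adjusted p = 0.053). Its partner in NADH oxidation, Ndufv2, differed by 0.15 ± 0.071 (adjusted p = 0.198), and Ndufs1, the largest core subunit, which holds several iron-sulfur clusters, by -0.07 ± 0.066 (adjusted p = 0.539). Ndufs7, which holds the last cluster before ubiquinone, differed by 0.17 ± 0.081 (adjusted p = 0.197), Ndufs8, a carrier of iron-sulfur clusters, by 0.24 ± 0.078 (adjusted p = 0.0862), and Ndufs3 by -0.06 ± 0.072 (adjusted p = 0.601). Within the core, Ndufv1 had the highest value, and Ndufs1 and Ndufs3 had values below 0.

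Among the matrix-arm accessory subunits, Ndufv3, a small subunit beside the flavin site, was 33.9 ± 0.542 FPKM in Control and 47.0 ± 6.0 in NPCT (SD, n = 3), a log2 difference of 0.46 ± 0.094 (SE, adjusted p = 0.0509). Ndufs4 (chr2:46372518-46476203), whose loss in patients and mice causes Leigh-like encephalopathy, measured 59.4, 60.0 and 54.0 FPKM in Control, 57.4, 48.6 and 51.2 in PCT and 43.9, 46.5 and 50.1 in NPCT. All NPCT libraries were below all controls, and the PCT libraries overlapped both groups. The log2 difference was -0.30 ± 0.080 for NPCT (adjusted p = 0.0613) and -0.15 ± 0.080 for PCT (adjusted p = 0.376).

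The other accessory subunits are given by their levels (mean ± SD, n = 3). In the far membrane arm, Ndufb7, Ndufb10 and Ndufb4 were 73.1 ± 3.26, 67.1 ± 1.85 and 157 ± 10.1 FPKM in Control and 99.2 ± 5.19, 91.3 ± 3.71 and 190 ± 16.1 in NPCT, and in each the NPCT libraries lay above the controls. Ndufb9 was 86.7 ± 6.05 in Control, 112 ± 9.99 in PCT and 102 ± 9.70 in NPCT. Ndufb11 was 68.8 ± 4.38 in Control and 77.3 ± 4.87 in NPCT, with the groups just apart, whereas Ndufb5, at 55.2 ± 1.64 and 53.6 ± 5.98, overlapped. In the near membrane arm, Ndufs5 was 125 ± 8.02 in Control, 153 ± 12.1 in PCT and 141 ± 14.7 in NPCT, and Ndufc2, Ndufc1 and Ndufa10 had log2 differences of 0.24, 0.27 and -0.07 with NPCT. In the matrix arm, Ndufa6 was 75.3 ± 3.6 in Control and 91.9 ± 7.08 in NPCT without overlap, and Ndufa5, Ndufa7, Ndufa2 and Ndufa9 had log2 differences of 0.32, 0.31, 0.19 and 0.06 with NPCT. Ndufab1, which also serves mitochondrial fatty acid synthesis, was 26.8 ± 0.904 in Control, 31.5 ± 1.83 in PCT and 29.0 ± 2.56 in NPCT, with the PCT libraries all above the controls.

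PCT against Control gave a fold change above 0 for 34 of 37 members, with a median log2 difference of 0.21 against 0.00 over all genes tested. The comparison shares the control libraries with the previous one. By limma with Benjamini-Hochberg adjustment, Ndufb8 and Ndufa4 had an adjusted p of at most 0.05 (2 of 37, background 4.12%), and no member was a DEG (background 2.28%). Limma-voom called 0 as well (background 2.35%). At an unadjusted p under 0.05, 15 members were higher (background 9.91%) and 0 lower (background 9.01%). All PCT libraries lay above all controls for 18 members (background 13.1%) and below them for 0 (background 11.9%). Without PCT replicate 3 the median was 0.12, 29 members were above 0 and 12 were higher at an unadjusted p under 0.05 (background 10.2%). There was then 1 DEG (background 2.16%), Ndufa3, which was lower with PCT.

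With PCT the core subunits had a median of 0.21, and 7 of 7 were above 0. Ndufv2 differed by 0.26 ± 0.071 (SE, adjusted p = 0.0785). Ndufv1 differed by 0.25 and Ndufs8 by 0.21, while Ndufs3, Ndufs1 and Ndufs7 had 0.15, 0.10 and 0.05. The medians of the accessory groups were 0.30 for the far membrane arm, 0.13 for the near membrane arm and 0.13 for the matrix arm. Without PCT replicate 3 they were 0.11, 0.08 and 0.03, and that of the core was 0.16. All 10 members of the far membrane arm were above 0 both with and without that library.

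**Figure D3:**
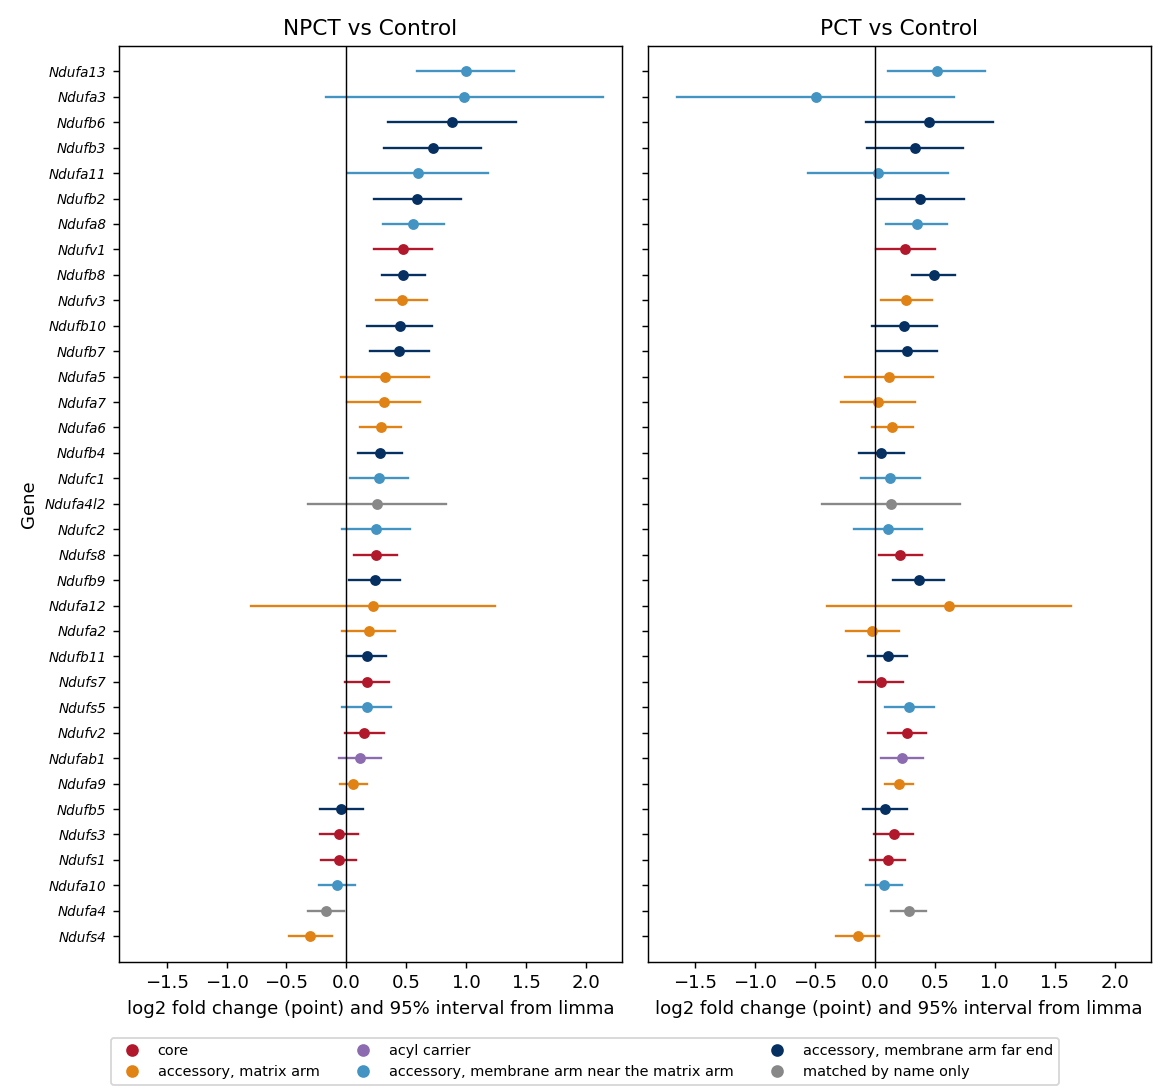
Log2 fold change (horizontal axis, points) with its 95% interval from limma (lines) for NPCT against Control and PCT against Control, for 35 members tested (Ndufa1 left out), coloured by place in complex I. Most points lie to the right of 0 in both panels, the far membrane arm reaches 0.88 with NPCT (Ndufb6), and Ndufs4 lies left of 0 in both.

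Direct comparison of NPCT with PCT gave a median log2 difference of 0.12 over the members (0.00 over all genes), with 22 of 37 above 0. This median was 0.056 without PCT replicate 1, 0.064 without PCT replicate 2, 0.077 without NPCT replicate 3 and 0.065 with the trend of levels on gene length removed, and it was 0.15 without PCT replicate 3. No member was a DEG (background 5.73%), and limma-voom called 1, Ndufa3 (background 6.01%). By limma with Benjamini-Hochberg adjustment, Ndufa4 was the 1 member with an adjusted p of at most 0.05 (background 16.1%). At an unadjusted p under 0.05, 3 members were higher with NPCT (background 16.0%) and 4 lower (background 16.8%). The groups did not overlap for Ndufb4, higher with NPCT (background 15.4%), and for Ndufa4, Ndufa9, Ndufs1 and Ndufs3, lower with NPCT (background 18.0%). With all libraries and this model, each of these shares of members was below the background, from 0% for DEGs to 10.8% for the members lower with NPCT. The count higher at an unadjusted p under 0.05 was 7 (18.9%, background 14.4%) with quantile normalization, 8 (21.6%, background 17.9%) with limma-voom and 9 (24.3%, background 16.3%) with a replicate block, and it was 1 without PCT replicate 1 (background 12.8%) or NPCT replicate 3 (background 13.7%).

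Without PCT replicate 3 the same comparison gave 5 DEGs (background 10.2%), all higher with NPCT, namely Ndufa3 (log2 difference 2.24), Ndufa11 (0.95), Ndufb6 (0.77), Ndufa13 (0.71) and Ndufb3 (0.63), and 16 members were higher at an unadjusted p under 0.05 (background 20.9%). The NPCT libraries lay above both remaining PCT libraries for 19 members (26.9% of all genes) and below them for 5 (28.1%). By position, the medians without that library were 0.34 for the near membrane arm, 0.29 for the far membrane arm, 0.20 for the matrix-arm accessory subunits and -0.04 for the core. The core subunits Ndufs3 and Ndufs1 lay lower with NPCT than with PCT, by -0.22 ± 0.072 and -0.17 ± 0.066 with all libraries (SE, adjusted p = 0.0717 and 0.112).

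Ndufa3 (chr1:64172540-64175099), a small subunit of the near membrane arm, had the largest log2 difference between NPCT and PCT among the members. It measured 64.0, 51.1 and 57.1 FPKM in Control, 25.4, 22.7 and 115.6 in PCT and 106.0, 113.8 and 119.2 in NPCT. NPCT was above the controls in every library, PCT replicates 1 and 2 were below them, and PCT replicate 3 was inside the NPCT range, 4.81 times the mean of the other PCT libraries. The log2 difference was 0.98 ± 0.51 for NPCT against Control, -0.50 ± 0.51 for PCT against Control and 1.48 ± 0.51 for NPCT against PCT (SE, adjusted p = 0.232, 0.669 and 0.081). Without PCT replicate 3 the values were 0.98 (adjusted p = 0.00234), -1.26 (adjusted p = 0.000829) and 2.24 (adjusted p = 7.51e-05). That library was singled out because of values such as these, so these adjusted p-values are descriptive. In the table the neighbouring gene Tfpt ends 69 bases before Ndufa3 on the other strand, and an Ndufa3-like locus on chr2, LOC684509, held 78 fragments in PCT replicate 3 and 2 to 12 in the others.

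PCT replicate 3 was also above the other PCT libraries in further members. Relative to the mean of PCT replicates 1 and 2, after Ndufa3 and the sparsely counted Ndufa1, the highest ratios were 2.16 for Ndufa11, 2.04 for Ndufb6, 1.64 for Ndufb3 and 1.62 for Ndufa13. Over all members tested, PCT replicate 3 was nearer to the NPCT mean than to its own group's other libraries for 23 of 37 (62.2%), against 53.9% of all genes. Core subunits other than Ndufv1 had ratios from 0.96 to 1.11, and Ndufv1 had 1.31.

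Ndufa4 (chr4:38233680-38240848) had the highest mean level of all members. It measured 233, 239 and 227 FPKM in Control, 288, 300 and 264 in PCT and 205, 198 and 219 in NPCT. All PCT libraries lay above and all NPCT libraries below the controls. The log2 difference was 0.28 ± 0.065 for PCT (SE, adjusted p = 0.0492), -0.17 ± 0.065 for NPCT (adjusted p = 0.128) and -0.45 ± 0.065 between NPCT and PCT (adjusted p = 0.00425). Ndufa4 therefore rose with PCT and was lower with NPCT than with PCT. Without PCT replicate 3 the last difference was -0.50 (adjusted p = 0.00102), and in 9 of 9 fits that left out a library its adjusted p was still below 0.05. The difference between PCT and Control did so in 2 of 9, without PCT replicate 3 or NPCT replicate 3, with adjusted p from 0.0210 to 0.174.

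Several members had uncertain counts. Ndufa1, an essential small membrane-arm subunit encoded on chromosome X (chrX:124513269-124516705), held 3, 0 and 164 fragments in the Control libraries, 1, 1 and 214 in PCT and 6, 4 and 3 in NPCT. A nearby locus with the same subunit name, LOC108348144 (chrX:123803103-123806777), held 0, 5 and 1, then 374, 189 and 7, then 482, 7 and 5. In each library at least 1 of the loci held 7 fragments or fewer, and the sum over them still ranged from 3 to 488. The fitted difference of Ndufa1 had a 95% interval from -5.66 to 5.10 for NPCT against Control, so that no direction can be given for this subunit.

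**Figure D4:**
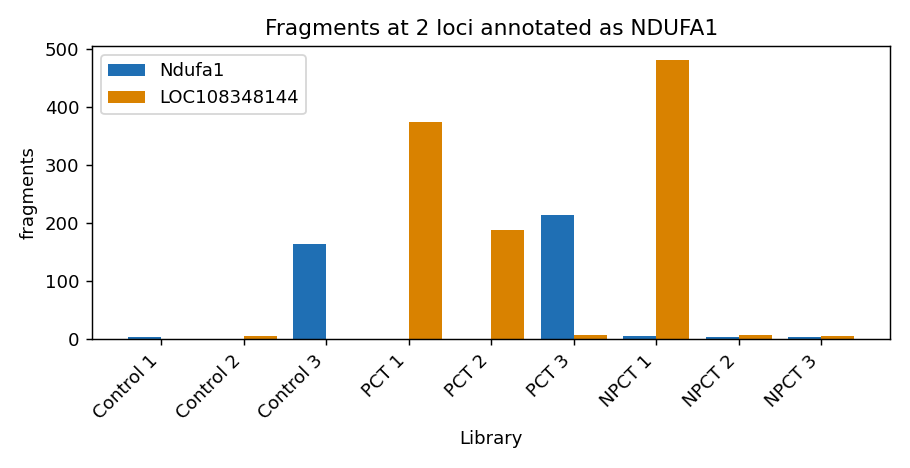
Fragments (vertical axis, from 0) at Ndufa1 and at LOC108348144, both annotated as the NDUFA1 subunit, in each of the 9 libraries. Control 3 and PCT 3 have their fragments at Ndufa1, PCT 1, PCT 2 and NPCT 1 at LOC108348144, and the remaining libraries have few at either.

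Ndufa12, a matrix-arm accessory subunit, measured 11.5, 12.1 and 8.2 FPKM in Control, 13.5, 37.8 and 8.3 in PCT and 11.8, 11.2 and 13.8 in NPCT, with PCT replicate 2 far above the rest. The matrix-arm subunit NDUFS6, which was not among the members, was carried by 2 loci, LOC679739 with 1, 65 and 26 fragments in Control, 1, 3 and 6 in PCT and 60, 180 and 63 in NPCT, and LOC100912599 with 2 to 26 fragments in all libraries. In addition, 6 members overlapped a gene on the opposite strand (Ndufa4, Ndufa2, Ndufa8, Ndufs8, Ndufb5 and Ndufs3) and Ndufb6 overlapped Topors on its own strand. Whether counting used strand is not given in the sources used here. Mean levels of the overlapping genes were 1.60 to 21.5 FPKM, below those of the members. FPKM is scaled to length, so a lower level in a longer gene need not mean fewer fragments. Topors has 4691 bases at 9.86 FPKM and Ndufb6 629 bases at 65.5 FPKM. Phf14, which overlaps Ndufa4 (785 bases), has 5245 bases at 21.5 FPKM. The part of overlap in the members' values was not tested.

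Complex I genes are short, with a median of 711 bases over the members tested against 2136 over all genes tested. Gene length moved with the members' differences in the comparisons that involve NPCT. Over 35 members (without Ndufa4 and Ndufa4l2), the Spearman correlation across genes between the log2 difference and length was -0.44 for NPCT against Control, -0.03 for PCT against Control and -0.48 for NPCT against PCT, and genes of one library are not independent. The 14 members under 600 bases had a median of 0.30 for NPCT against Control and the 13 of 900 bases or more had 0.11, against 0.13 and -0.01 for all genes of these lengths. For PCT against Control the medians were 0.12 and 0.20, against 0.046 and -0.0039. For NPCT against PCT they were 0.21 and -0.13, against 0.076 and -0.012. Within each library, the slope of the log2 level on log2 length was -0.00029 to 0.028 in Control, 0.021 and 0.027 in PCT replicates 1 and 2, -0.027 in PCT replicate 3 and -0.026 to -0.019 in NPCT. When a length trend over all genes was removed from each library, the median member was 0.14 higher with NPCT, 11 members were higher at an unadjusted p under 0.05 (background 15.7%), and Ndufa13 was a DEG (background 0.746%). The part of length in the remaining values was not tested.

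**Figure D5:**
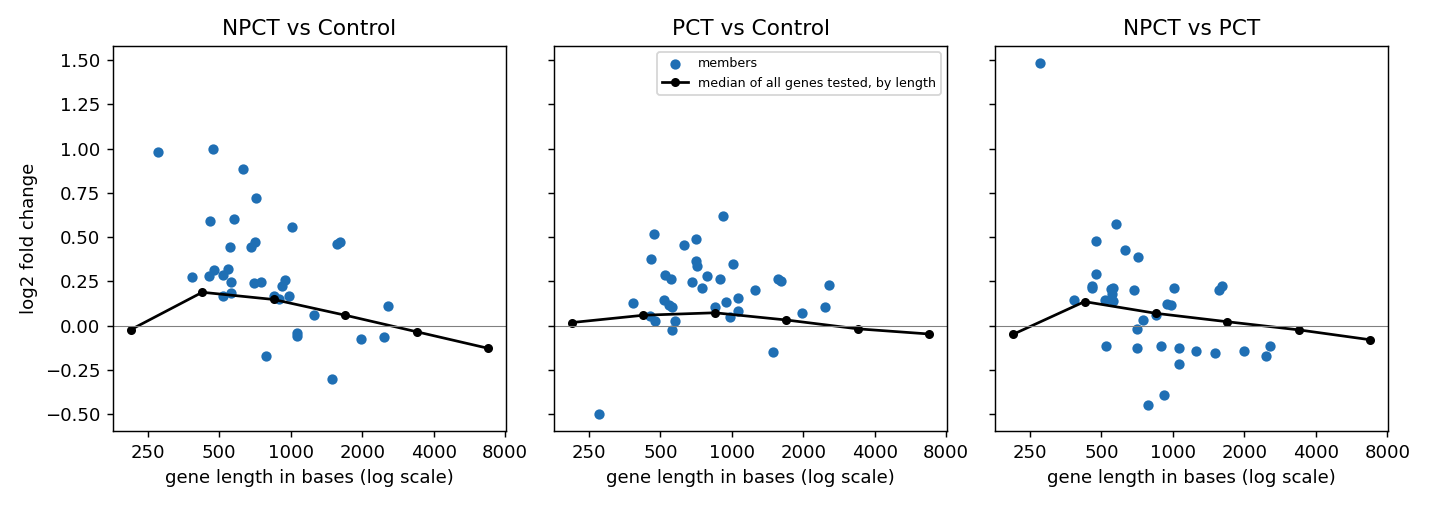
Log2 fold change (vertical axis) of 35 members tested (Ndufa1 left out) against gene length in bases (horizontal axis, log scale) for the 3 comparisons, with the median of all genes tested in length bins as a line. With NPCT the all-gene median goes from 0.19 at 300 to 600 bases to -0.13 at 4800 to 9600 bases, and the 13 members under 600 bases that are plotted lie above 0.

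The partner genes of complex I were described in the same way. The 7 subunits encoded by mitochondrial DNA, which form the proton-pumping core of the membrane arm, all lay below the controls with NPCT (background 20.3%), with a median log2 difference of -0.65 and 0 DEGs (background 0.219%). ND4L measured 2323, 2635 and 2163 FPKM in Control and 1295, 1560 and 1301 in NPCT, a difference of -0.78 ± 0.16 (SE, adjusted p = 0.0509). With PCT against Control the median of these 7 was -0.02, and 4 of them were lower DEGs with NPCT against PCT (DEGs in either direction, background 5.73%). The mitochondrial share of fragments was 5.18% to 5.84% in Control, 3.70% to 4.17% in NPCT and 4.11% to 6.21% in PCT, where the lowest value was PCT replicate 3 (exact two-sided permutation test against Control, p = 0.1 for NPCT, the smallest that 3 against 3 allows, and 0.9 for PCT).

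The 19 assembly factors, which build the complex and are not part of it, had a median of 0.10 with NPCT and 0.15 with PCT, with 12 and 15 above 0. At an unadjusted p under 0.05, 4 were higher (background 14.6%) and 2 lower (background 14.7%) with NPCT, and 6 were higher (background 9.91%) and 0 lower (background 9.01%) with PCT. Ndufaf8, which assists the assembly of complex I through Ndufaf5, was 19.2 ± 2.35 FPKM in Control, 31.1 ± 4.73 in PCT and 30.3 ± 6.16 in NPCT (SD, n = 3). The 41 nuclear subunits of complexes II to V had a median of 0.19 with NPCT and 0.21 with PCT, beside 0.24 and 0.21 for the complex I members, with 33 and 36 above 0. Of 13 transcriptional regulators of mitochondrial genes, 5 were above 0 with NPCT (median -0.05) and 10 with PCT (median 0.07). All NPCT libraries lay above all controls for 3 of them (23.1%, background 20.0%) and below for 6 (background 20.3%), and 0 were DEGs (background 0.219%). Esrra had the highest log2 difference of the list with NPCT, 0.50 ± 0.21 (SE, limma adjusted p = 0.154). Esrra, a nuclear receptor that drives OXPHOS genes, was 12.4, 14.6 and 13.7 FPKM in Control, 14.1, 11.3 and 21.6 in PCT and 20.1, 16.4 and 21.2 in NPCT. The lowest was Tfb2m, a mitochondrial transcription factor, at -0.38 ± 0.15 (adjusted p = 0.130). Gabpa and Gabpb1, subunits of the ETS-family factor GABP, had -0.29 ± 0.090 (adjusted p = 0.0794) and -0.23 ± 0.089 (adjusted p = 0.131). Ppargc1a, the coactivator PGC-1α, was 7.53 ± 0.671 FPKM in Control and 7.45 ± 0.298 in NPCT.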

How the data were processed

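RNA-sequence of 9 libraries (3 Control, 3 NPCT, 3 PCT) was used. The authors aligned reads with HISAT2 2.0.5 and counted them with featureCounts 1.5.0-p3, and the submitters' processing notes also name CASAVA, StringTie 1.3.3b, DESeq2 1.20.0 and the build Rnor_6.0. The deposited values are FPKM with gene positions, and log2 scaling was done here. FPKM multiplied by gene length gave whole multiples of a single step in 100% of values above 0 (tolerance 0.1), which returned fragments.

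The filter kept 15958 of 34092 genes, those averaging 0.5 FPKM or more. Libraries were scaled by median ratios (factors 1.00 to 1.01). Values were taken as log2 (FPKM + 0.1) and modelled in R 4.3.3 by limma 3.58.1 (trend), with 1 mean per group, and p-values were adjusted by Benjamini-Hochberg. A fold change is on the log2 (FPKM + 0.1) scale, which understates changes of low genes. The fit was tested on simulated data. Because values were FPKM, limma stood in for the count test of the methods. Shortness of a gene, strand and copies can affect FPKM. Low counts limit the values of Ndufa4l2 in all libraries, and of Ndufa1 in all but Control replicate 3 and PCT replicate 3. The cause of the uneven counts of Ndufa1 was not tested.

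Members and lists were chosen with earlier results of these data known. Named members were the core subunits, the members with the smallest p in each comparison, the highest and lowest in level, those lower than Control, those matched by name only and those untested or sharing copies. 1 member is counted in the totals and medians but is not reported individually here or drawn. Alternatives changed the pseudocount, filter, scaling, groups fitted, replicate block, length trend, tool and libraries included.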

Additional observations from a re-analysis of the deposited data

Results flagged for a closer look

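Ndufa4 differed between the peptides by -0.45 on the log2 scale (NPCT against PCT, limma, adjusted p = 0.00425). It was singled out because the effects of the peptides against the same controls differ by a direct test, with all 3 NPCT libraries below and all 3 PCT libraries above the controls.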

How the results depend on the processing

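Over 35 named fold changes and their alternatives (665 values), 634 stayed on the same side of the DEG thresholds in the same direction, 28 passed them where the reported value had not, and 3 changed sign. The count of DEGs among the members for NPCT against Control, reported as 0, was 1 with a pseudocount of 1, with a mean FPKM of at least 1, with quantile normalization or with the length trend removed, 5 with limma-voom, and 6 when only these groups were fitted. The DEGs over all genes, 35 as reported, were then 121, 202, 189, 119, 390 and 580 in the same order. With the length trend removed the median was 0.14. Same-numbered libraries did not resemble each other (correlations of departures from -0.072 to 0.034), and a replicate block gave 3 DEGs (Ndufa13, Ndufb2 and Ndufb3) among 320 over all genes. For NPCT against PCT, reported as 0, limma-voom gave 1 (959 over all genes, 914 as reported).

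Leaving out each library in turn gave 0 to 6 DEGs for NPCT against Control, 0 to 1 for PCT against Control and 0 to 5 for NPCT against PCT, with the upper ends reached without PCT replicate 3. The median for PCT against Control then ranged from 0.12 to 0.23. Ndufs3 for NPCT against Control ranged from -0.14 to 0.00086 (without NPCT replicate 1). Ndufs7 for PCT against Control ranged from -0.023 (without PCT replicate 2) to 0.11, and was -0.0019 with the length trend removed. The cause of these changes was not tested. Ndufb8 for NPCT against Control ranged from 0.34 to 0.53 over the alternatives, with adjusted p from 0.00677 to 0.170.

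The members tested other than Ndufa1 and Ndufa4l2 had at least 89 fragments in every library.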
